A study of Mus musculus with 17 samples.

Results

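The 39 genes described here encode collagen alpha chains. They were taken by symbol from the 35896 Ensembl gene IDs of the count files, and each symbol matched 1 ID. They fell into 9 classes by the structure their products form: 11 fibrillar chains, 6 basement membrane chains of type IV, 7 FACIT chains (fibril-associated collagens with interrupted triple helices), 2 multiplexins, 4 chains of type VI beaded filaments and their relative type XXVIII, 1 anchoring fibril chain, 3 short-chain network chains, 4 transmembrane chains and 1 other chain. Of these, 35 passed the filter on low counts and were tested among 13923 genes. Col9a1, Col9a2, Col22a1 and Col13a1 did not pass it.

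A collagen molecule is built from 3 alpha chains wound into a triple helix, and many types mix the products of different genes in a fixed proportion. Fibrillar collagens form the tensile fibrils of connective tissue, type IV forms the sheet of basement membranes, and FACITs, type VI and type VII link these structures to each other and to cells. In the pancreas, stellate cells are a main source of collagen in fibrosis and in the stroma of ductal adenocarcinoma, and TGF-beta is the best known inducer of their fibrillar collagen genes.

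Both cell lines, PSC4 and PSC5, came from mouse pancreatic stellate cells and are labelled WT (wild type) and C57BL/6J, with no transgene named. All cultures were embedded in Matrigel, a basement membrane extract that itself contains type IV collagen protein, and all were collected after 4 days. The control group had 5 libraries in control medium (3 of PSC4, 2 of PSC5). The TGF-beta group had 4 libraries in that medium with 20 ng/mL of the ligand, the conditioned medium (CM) group had 4 libraries in medium from tumour organoids, and the neratinib group had 4 libraries in such medium plus neratinib at 300 nM, which blocks the kinase activity of ERBB receptors. The last 3 groups held 2 libraries of each line. No vehicle was named for the other groups, each line stands for its own origin only, and the replicates of a line are labelled with successive passages (23 to 25 for PSC4, 27 and 28 for PSC5). Nothing in the labels says more about their independence, so the p-values measure the spread between these libraries.

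Library totals lay between 22168953 and 29421447 counts, and 3 counts in a library corresponded to 0.102 to 0.135 CPM, the unit of counts scaled to a common library size. This was taken as the floor of detection and covers counting error only. The cells carried their label's markers: 9 of 10 stellate and fibroblast genes were above the floor, with summed levels of 3979 to 7108 CPM, while Lrat, a retinoid enzyme of quiescent stellate cells, was at 0 in all control, TGF-beta and CM libraries. Summed levels of 8 epithelial genes were 14.8 to 23.4 CPM in control and TGF-beta libraries, 20.2 to 175 CPM in CM and 9.70 to 311 CPM with neratinib, highest in the libraries whose medium was coded T6. Of these 8 genes, 6 were called higher in CM and 7 with neratinib, and 1 was called lower with TGF-beta, against control. Summed levels of 6 macrophage and leukocyte genes were 14.3 to 17.6 CPM in control, 6.57 to 7.78 with TGF-beta, 26.8 to 53.2 in CM and 35.5 to 67.9 with neratinib, with Adgre1 at 0 throughout and Ptprc at 0 in the neratinib group. Summed levels of 6 endothelial genes were 2.45 to 5.51 CPM in control, 3.66 to 5.63 with TGF-beta, 1.45 to 2.12 in CM and 1.38 to 2.30 with neratinib. Of 4 tested, 2 were called higher with TGF-beta, 1 lower in CM and 3 lower with neratinib. Summed levels of 5 mesothelial genes were 5.67 to 37.4 CPM in control, 4.23 to 15.9 with TGF-beta, 37.7 to 77.3 in CM and 23.4 to 81.5 with neratinib. Those of 5 Schwann cell genes were 2.16 to 3.52 CPM in control, 2.49 to 8.34 with TGF-beta, 1.34 to 2.08 in CM and 1.77 to 2.64 with neratinib, with 1 of 2 tested called higher with TGF-beta and Foxd3 at 0 throughout. The part of these markers in the results below was not tested. The libraries labelled PSC4 replicate 1, 1 each in the control, CM and neratinib groups, stood apart from their line: across all tested genes their deviations from the group means had a median correlation of 0.23 with PSC5 libraries and of -0.36 with PSC4 replicates 2 and 3. The counts of changed chains are therefore also given without them. CPM values are listed below with PSC4 libraries first and PSC5 libraries after them, each by replicate number. Fold changes are on the log2 scale and stand with their standard error. Replicate 1 of PSC4 was absent from the TGF-beta group. Every T6 library is a replicate 2 and every T8 library a replicate 1, with its passage, so medium code and replicate number cannot be told apart. Values within a medium code for CM are set against all 5 control libraries.

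Sequence upstream of the chain genes was available in RefSeq for 31 of the 39 members, as windows on GRCm38.p6. The bases before the annotated start are shown for Col3a1, Col7a1 and Col15a1, which rose with TGF-beta, for Col23a1, which fell with it, and for Col11a2, which rose with neratinib, so that the genes that moved apart can be read side by side. Each run is 250 bases on the plus strand, which is the coding strand of all 5 genes, and ends at the base before the RefSeq start, which for Col11a2 and Col15a1 lies upstream of the start in the gene annotation used for positions below. Capitals mark CAGAC or its reverse complement GTCTG, the core of the element bound by SMAD proteins, the DNA-binding mediators of TGF-beta.
Col3a1 (chr1:45311288-45311537): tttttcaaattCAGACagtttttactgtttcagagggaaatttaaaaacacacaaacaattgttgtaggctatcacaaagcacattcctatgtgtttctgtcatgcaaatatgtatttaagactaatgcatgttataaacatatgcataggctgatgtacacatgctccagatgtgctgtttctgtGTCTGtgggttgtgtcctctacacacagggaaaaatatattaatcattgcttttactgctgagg
Col7a1 (chr9:108953336-108953585): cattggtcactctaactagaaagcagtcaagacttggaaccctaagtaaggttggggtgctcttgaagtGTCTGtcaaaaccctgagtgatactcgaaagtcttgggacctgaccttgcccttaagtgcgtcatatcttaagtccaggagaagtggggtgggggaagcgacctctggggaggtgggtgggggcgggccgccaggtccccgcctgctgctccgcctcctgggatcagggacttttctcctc
Col15a1 (chr4:47207762-47208011): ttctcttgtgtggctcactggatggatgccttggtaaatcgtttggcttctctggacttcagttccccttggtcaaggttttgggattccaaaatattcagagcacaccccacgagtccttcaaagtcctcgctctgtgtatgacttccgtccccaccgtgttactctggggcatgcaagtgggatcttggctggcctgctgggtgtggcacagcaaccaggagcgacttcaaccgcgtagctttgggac
Col23a1 (chr11:51289670-51289919): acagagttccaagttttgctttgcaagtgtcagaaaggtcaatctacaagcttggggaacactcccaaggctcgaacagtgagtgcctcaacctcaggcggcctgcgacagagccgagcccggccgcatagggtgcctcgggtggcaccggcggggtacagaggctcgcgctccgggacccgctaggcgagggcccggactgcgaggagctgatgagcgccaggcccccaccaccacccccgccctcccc
Col11a2 (chr17:34038888-34039137): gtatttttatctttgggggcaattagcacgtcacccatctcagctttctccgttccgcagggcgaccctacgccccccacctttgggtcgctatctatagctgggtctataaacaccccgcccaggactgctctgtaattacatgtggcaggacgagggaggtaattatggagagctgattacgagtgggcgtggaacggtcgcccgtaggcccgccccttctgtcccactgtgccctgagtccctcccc
The core was present 2 times in the Col3a1 run, 1 time in the Col7a1 run and in none of the other 3. Among all 32851 RefSeq windows, 42.2% held CAGAC on either strand, and 15 of the 31 members did in at least 1 window. TATAAA was in 12.4% of all windows and in those of 5 members, among the shown runs in Col3a1 and Col11a2. CCAAT was in 33.8% of all windows and in those of 12 members, and of the shown runs only the one of Col7a1 held it. GGGCGG, the GC box, was in 32.7% of all windows and in those of 18 members, and TGANTCA, the AP-1 element, in 6.7% and in 1 member, Col6a1. All motifs were searched on both strands, and such a match only says that the letters are there.

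A further stretch is shown because a pair of members shares it. The type IV genes lie head to head in pairs, and between the starts of Col4a3 (plus strand) and Col4a4 (minus strand) there are only 71 bases.
Col4a3 to Col4a4 (chr1:82586850-82586920): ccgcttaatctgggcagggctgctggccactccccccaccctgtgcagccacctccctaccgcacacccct
None of the 5 motifs was found in the Col4a4 window that contains this stretch.

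TGF-beta raised most collagen chain genes. Of the 35 tested members, 21 rose and 3 fell (adjusted p under 0.05), where 40.2% of all 13923 genes were called, 19.7% higher and 20.5% lower. The median log2 fold change was 1.13 over the tested members and -0.02 over all genes. Every class but the single other chain had a rise, with 8 of 11 fibrillar, 4 of 6 type IV, both multiplexin, all 3 short-chain and the only anchoring fibril chain. The steepest were Col10a1 (6.02), Col15a1 (5.59), Col5a3 (3.60) and Col7a1 (3.53), while Col23a1 (-3.18), Col4a6 (-2.91) and Col4a5 (-0.92) fell. Col10a1 and Col4a3 reached 10 counts only in TGF-beta libraries and passed the filter through that group. Their calls against control, and their differences between TGF-beta and the other groups, are therefore no independent support. All 24 called members had the same sign within PSC4 and within PSC5. Such signs, here and below, come from the same libraries that gave the calls and are no independent support. The share of all counts taken by the 39 genes was 0.963% ± 0.0656 (SD, n = 5) in control and 2.29% ± 0.558 (n = 4) with TGF-beta. In bulk RNA, fewer cells of a kind and less RNA per cell cannot be told apart. Without the libraries labelled PSC4 replicate 1, 28 members were called, 22 of them higher, where 49.4% of all genes were called (24.1% higher, 25.3% lower). The calls of Col3a1, Col11a2, Col14a1 and Col4a5 were each lost when some single libraries were left out. The other 20 were kept in every alternative run that tested the gene. Col10a1 and Col4a3 were not tested under the alternative filter of 1 CPM in at least 4 libraries.

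In CM every chain called in the model of group and line was lower than in control, with Col6a1, Col6a2 and Col6a3 of type VI among them. Of the 35 tested members, 10 fell and 0 rose, where 14.2% of all genes were called, 7.05% higher and 7.14% lower. The median over the tested members was -0.31, against 0.00 over all genes. The 10 were Col6a1, Col6a2 and Col6a3, Col5a1, Col11a1, Col2a1, Col4a6, Col12a1, Col15a1 and Col17a1, and all had the same sign within both lines and within both medium codes. The collagen share of counts was 0.792% ± 0.0475 (SD, n = 4). Without the libraries labelled PSC4 replicate 1, 11 members were called, all lower, where 18.1% of all genes were called (9.22% higher, 8.88% lower), and Col15a1 and Col17a1 were not among them (adjusted p 0.0653 and 0.0592, edgeR). The count depended on single libraries: it was 5 without control PSC4 replicate 2 or control PSC5 replicate 2, 6 without control PSC5 replicate 1, 4 without CM PSC4 replicate 2 or CM PSC5 replicate 2, 3 without CM PSC4 replicate 1 and 1 without CM PSC5 replicate 1, while 5.68% to 12.9% of all genes were called with 1 library left out. Col6a2 alone kept its call in every alternative run. With line and replicate number as a block 14 members were called, 13 of them lower, where 23.3% of all genes were called (11.8% higher, 11.4% lower).

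With neratinib in the conditioned medium, most collagen chains were below control and Col11a2 stood out above it. Against control, 18 members fell and 1, Col11a2, rose, where 43.1% of all genes were called, 22.2% higher and 20.9% lower, and the median was -1.04. Against CM, 4 members fell (Col5a1, Col11a1, Col28a1 and Col25a1) and 2 rose (Col11a2 and Col20a1), where 20.5% of all genes were called, 10.8% higher and 9.63% lower. The members' share of calls against CM, 17.1%, was thus near that of all genes. The median over the tested members was -0.44 against CM, and over all genes it was 0.00. The collagen share of counts was 0.592% ± 0.206 (SD, n = 4), from 0.379% in the library labelled PSC4 replicate 1 to 0.828% in PSC5 replicate 1. All 6 calls against CM had the same sign in both lines and both media. Without the libraries labelled PSC4 replicate 1 there were 18 calls against control, where 40.3% of all genes were called (20.6% higher, 19.7% lower), and Col1a1 and Col3a1 were no longer among them. Against CM there were then 4 calls, where 14.2% of all genes were called (7.42% higher, 6.73% lower), and Col5a1, Col11a1 and Col28a1 were lost. With line and replicate number as a block, 10 members were called against CM, where 32.8% of all genes were (16.8% higher, 16% lower): the 6 above and also falls of Col5a3 (-0.47 ± 0.15, adjusted p 0.0301), Col7a1 (-0.62 ± 0.12, adjusted p 0.00319), Col8a2 (-1.66 ± 0.36, adjusted p 0.00508) and Col23a1 (-0.91 ± 0.27, adjusted p 0.0241) (edgeR). With only the CM and neratinib groups in the model, 1 member, Col11a2, was called higher, where 4.54% of all genes were called (2.54% higher), and without neratinib PSC4 replicate 2, 3 were, where 12.4% to 26.1% of all genes were called over the omissions of 1 library.

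Set against TGF-beta directly, 23 members were lower and 3 higher in CM, where 35.3% of all genes were called (17.8% higher, 17.5% lower). With neratinib 26 were lower and 4 higher, where 44% of all genes were called (23.1% higher, 20.9% lower). The 3 higher in CM were Col24a1, Col4a6 and Col23a1, and with neratinib they were Col11a2, Col20a1, Col4a6 and Col23a1. These comparisons share libraries with those above and are given as their own values only. The plot of fold changes sets the 3 treatments against control side by side.

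**Figure D1:**
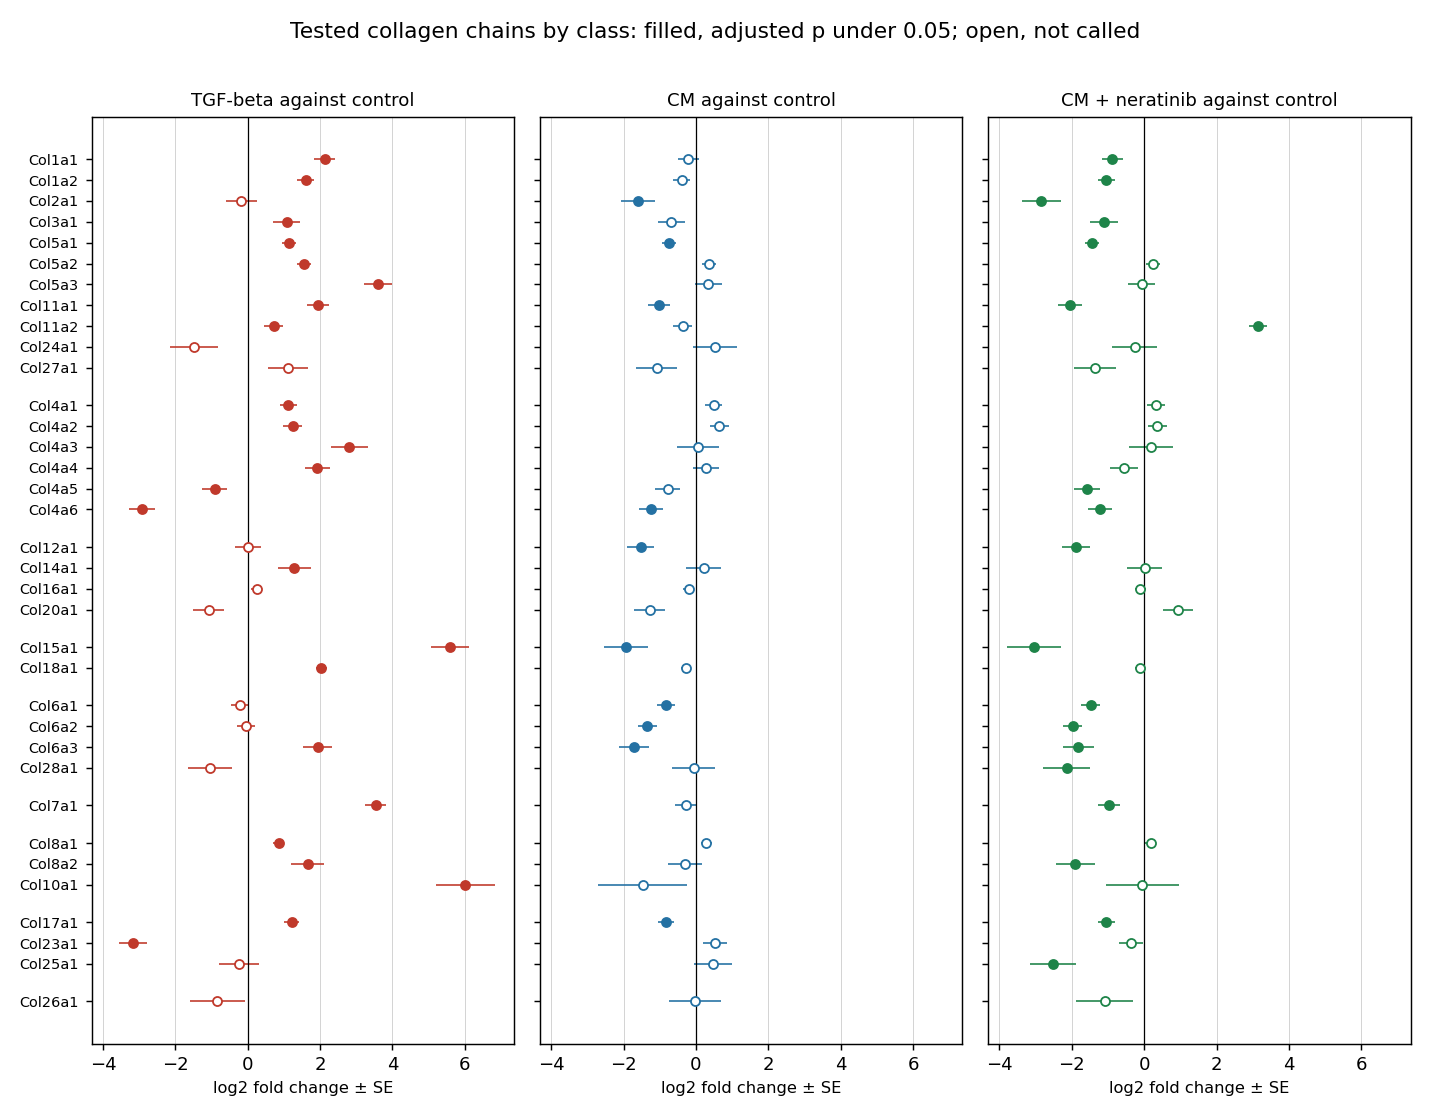
Log2 fold change with its standard error (x axis) for each of the 35 tested collagen chain genes (y axis, ordered by class) with TGF-beta, CM and CM with neratinib against control. Filled points passed an adjusted p of 0.05: 24 with TGF-beta, mostly to the right of 0, 10 in CM, all to the left, and 19 with neratinib, all to the left except Col11a2.

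The order of levels between genes was read per kilobase of transcript, since longer transcripts give more counts. In control, Col1a1 was highest at 295 ± 54.6 CPM per kb (SD, n = 5), followed by Col3a1 at 259 ± 34.7, Col6a1 at 208 ± 31.1, Col1a2 at 159.8 ± 42.7 and Col4a1 at 132 ± 9.36. The libraries of Col1a1 (228 to 353) and Col3a1 (216 to 298) overlapped there. With TGF-beta Col1a1 reached 1307 ± 371 CPM per kb, above Col3a1 at 548 ± 293 and Col1a2 at 485 ± 98.8, and the last of these lay within each other's spread. In CM, Col1a1 (259 ± 32.9 CPM per kb) was followed by Col4a1 (184 ± 46.5) and Col3a1 (162 ± 35.2), the latter pair within each other's spread. With neratinib Col1a1 (166 ± 88.6) and Col4a1 (163 ± 54.1) were level within their spread. Col9a1 had 0 counts in all 17 libraries. Col13a1 had at most 1 count in any library and Col9a2 at most 8, all under 0.3 CPM.

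Type I collagen is the main component of interstitial fibrils and is made of a pair of Col1a1 chains and 1 Col1a2 chain. Both genes rose with TGF-beta. Col1a1 (ENSMUSG00000001506, chr11:94936224-94953042, plus strand, GRCm38 like all gene positions here, from the GENCODE M21 annotation) stood at 2093, 1468, 1353, 1974 and 1865 CPM in control medium, 8248, 7027, 10485 and 5244 with TGF-beta, 1724, 1279.7, 1643 and 1492 in CM and 422, 1045, 1671 and 793 in CM with neratinib. Every TGF-beta library was above every control library, and the neratinib libraries ranged from far below control (PSC4 replicate 1) to within it (PSC5 replicate 1). Its log2 fold change was 2.13 ± 0.29, adjusted p 4.4e-05 with TGF-beta (edgeR), -0.21 ± 0.28, adjusted p 0.67 in CM and -0.88 ± 0.29, adjusted p 0.0242 with neratinib, all against control. The last was -0.54 with adjusted p 0.101 without the libraries labelled PSC4 replicate 1. Col1a2 (ENSMUSG00000029661, chr6:4504814-4541544, plus strand) stood at 1161, 684, 589.9, 859.6 and 979 CPM in control medium, 2946, 2519.7, 3037 and 1879 with TGF-beta, 831, 514, 522 and 740.0 in CM and 279.5, 480.3, 439.5 and 458 in CM with neratinib. The TGF-beta libraries were all above and the neratinib libraries all below the control libraries. The log2 fold changes against control were 1.60 ± 0.23, adjusted p 6.5e-05 with TGF-beta and -1.05 ± 0.23, adjusted p 0.00241 with neratinib (edgeR), and within the lines the TGF-beta difference was 1.81 in PSC4 and 1.38 in PSC5 on the log2(CPM + 0.5) scale.

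Type III collagen, encoded by Col3a1 alone, forms fine reticular fibrils with type I. Col3a1 (ENSMUSG00000026043, chr1:45311538-45349706, plus strand) stood at 1616, 1351, 1379, 1660.1 and 1199.9 CPM in control medium, 3672, 2943, 4716 and 858 with TGF-beta, 1094, 719, 747 and 1046 in CM and 386, 845, 1002 and 431 in CM with neratinib. Of the TGF-beta libraries 3 were above every control library, and the PSC5 replicate 2 library lay below all of them. The log2 fold change with TGF-beta was 1.08 ± 0.38, adjusted p 0.0333 (edgeR). All CM and all neratinib libraries were below control. The log2 fold changes were -0.68 ± 0.39, adjusted p 0.269 in CM, which did not pass, and -1.11 ± 0.39, adjusted p 0.0324 with neratinib (edgeR). The neratinib value was -0.88 with adjusted p 0.135 without the libraries labelled PSC4 replicate 1.

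Type V collagen seeds and limits the diameter of type I fibrils, mostly as a trimer with a pair of Col5a1 chains and 1 Col5a2 chain. All 3 of its genes rose with TGF-beta, and in CM Col5a1 fell while Col5a2 and Col5a3 did not pass. Col5a1 (ENSMUSG00000026837, chr2:27886425-28039514, plus strand) stood at 486, 321, 288, 468 and 452 CPM in control medium, 829.1, 726, 1369 and 767 with TGF-beta, 286, 176, 248 and 265 in CM and 125, 130.2, 216 and 140.4 in CM with neratinib. Groups followed each other without overlap from TGF-beta over control to CM, while CM and neratinib overlapped. The log2 fold changes were 1.15 ± 0.20, adjusted p 0.000291 for TGF-beta against control, -0.75 ± 0.20, adjusted p 0.0223 for CM against control and -0.70 ± 0.21, adjusted p 0.029 for neratinib against CM (edgeR). The last of these was -0.50 with adjusted p 0.0927 without the libraries labelled PSC4 replicate 1. Col5a2 (ENSMUSG00000026042, chr1:45374321-45503282, minus strand) stood at 799, 769.5, 753, 824 and 737 CPM in control medium, 2443, 2257, 2746 and 1693 with TGF-beta, 1025, 1008, 1112 and 853 in CM and 629.6, 1129, 1254 and 685 in CM with neratinib. It rose with TGF-beta by 1.56 ± 0.19, adjusted p 1.63e-05 (edgeR), and in CM all libraries were above control although the difference, 0.36 ± 0.19, adjusted p 0.217, did not pass. Col5a3, a chain of a rarer type V trimer, stood at 31.4, 11.9, 9.83, 27.2 and 24.6 CPM in control medium, 215, 177, 356 and 311 with TGF-beta, 33.7, 15.3, 34.9 and 24.2 in CM and 28.4, 9.96, 29.5 and 13.2 in CM with neratinib. It was the fibrillar chain with the largest rise with TGF-beta, 3.60 ± 0.39, adjusted p 5.66e-06 (edgeR), with no overlap of the groups. The rise was 3.61 in PSC4 and 3.66 in PSC5 on the log2(CPM + 0.5) scale. The PSC4 value takes in the control library labelled replicate 1, at 31.4 CPM against 11.9 and 9.83 in replicates 2 and 3. No TGF-beta library is the counterpart of that control library. The plot of fibrillar chains shows these values by library.

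**Figure D2:**
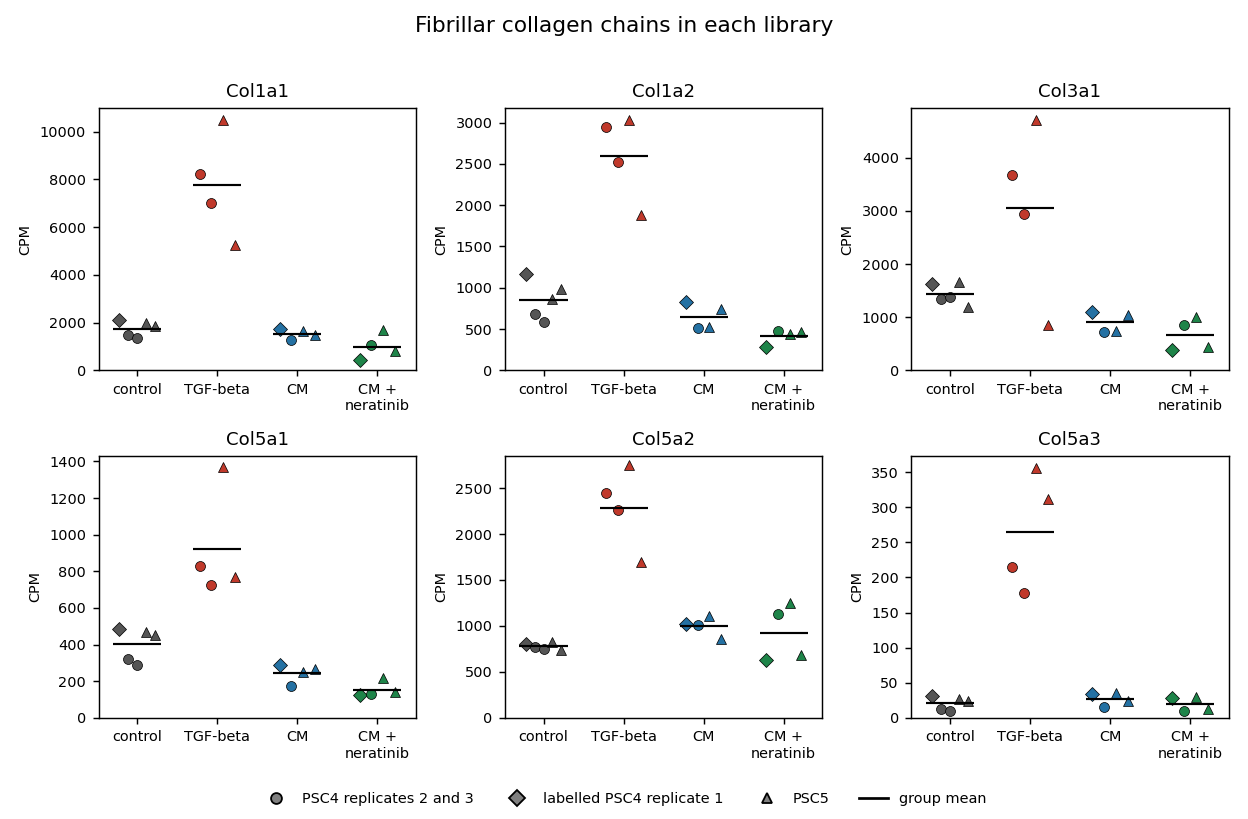
CPM (y axis, from 0) of 6 fibrillar collagen chain genes in each library by group, with the line as point shape, the libraries labelled PSC4 replicate 1 as diamonds, and the group mean as a bar. TGF-beta libraries lie above control for Col1a1, Col1a2, Col5a1, Col5a2 and Col5a3, and for Col3a1 in all but PSC5 replicate 2.

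Type XI collagen, best known from cartilage, nucleates fibrils there and is a relative of type V. Col11a1 (ENSMUSG00000027966, chr3:114030540-114220718, plus strand) stood at 39.5, 22.6, 23.01, 37.4 and 31.5 CPM in control medium, 110.0, 126, 164 and 79.8 with TGF-beta, 19.0, 9.81, 13.4 and 19.4 in CM and 3.19, 8.56, 12.8 and 6.23 in CM with neratinib. It rose with TGF-beta by 1.95 ± 0.31, adjusted p 0.000153, and fell by 1.02 in CM (0.0438) and by 2.04 with neratinib (0.000316) on the log2 scale against control, with adjusted p in brackets (edgeR), and none of the groups overlapped with control. The CM call and the call for neratinib against CM (-1.02 ± 0.34, adjusted p 0.0476) were each lost in several alternatives. Col11a2 (ENSMUSG00000024330, chr17:34039437-34066685, plus strand), the partner chain, went another way. It stood at 2.38, 3.36, 2.57, 1.76 and 2.38 CPM in control medium, 5.49, 4.91, 2.36 and 3.34 with TGF-beta, 2.04, 2.43, 1.30 and 1.68 in CM and 38.4, 16.6, 10.5 and 21.0 in CM with neratinib. The 4 neratinib libraries were above all other 13. The log2 fold change of neratinib was 3.51 ± 0.29, adjusted p 8.61e-06 against CM and 3.14 ± 0.26, adjusted p 1.41e-06 against control (edgeR), and it held in both lines (3.24 in PSC4 and 2.96 in PSC5, against CM) and both media (2.93 in T6 and 3.27 in T8). It kept its call without the libraries labelled PSC4 replicate 1. With TGF-beta the value was 0.71 ± 0.25, adjusted p 0.0354, with overlapping groups. Its promoter run above held 1 TATAAA, 2 GGGCGG and no CAGAC.

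Among the other fibrillar chains, Col27a1 stood at 4.89, 16.1, 16.8, 6.25 and 5.35 CPM in control medium, 20.3, 22.2, 16.0 and 18.1 with TGF-beta, 2.04, 10.3, 2.98 and 2.55 in CM and 0.596, 7.39, 4.11 and 1.74 in CM with neratinib. PSC4 replicates 2 and 3 were higher than the other libraries in control, and no comparison with control passed in the model of group and line. TGF-beta and neratinib each passed in several alternatives, among them without the libraries labelled PSC4 replicate 1. With line and replicate number as a block it was called in all 3: 0.91 ± 0.32, adjusted p 0.0327 with TGF-beta, -1.05 ± 0.34, adjusted p 0.0435 in CM and -1.46 ± 0.36, adjusted p 0.00481 with neratinib (edgeR). Col2a1, the cartilage fibril chain, was low, with 0.603 to 1.07 CPM in control, 0.473 to 0.939 with TGF-beta, 0.168 to 0.423 in CM and 0 to 0.275 with neratinib. Its fall was -1.60 ± 0.47, adjusted p 0.0353 in CM and -2.84 ± 0.55, adjusted p 0.000977 with neratinib (edgeR). These sizes rest on few counts, 5 to 12 in CM and 0 to 6 with neratinib. Col2a1 passed the filter through the control and TGF-beta groups, so its calls against them are no independent support. The CM call was lost when any of 8 single libraries was left out. Col24a1 had 1.15 to 1.87 CPM in control and 0.244 to 1.33 with TGF-beta, -1.48 ± 0.67, adjusted p 0.0907 (edgeR), and with the block it was called (-1.72 ± 0.64, adjusted p 0.0391).

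Type IV chains form the network of basement membranes: most contain a pair of Col4a1 chains and 1 Col4a2 chain, and the other 4 chains form rarer networks. Each of the 3 gene pairs shares a start region. Col4a1 and Col4a2 rose together with TGF-beta, Col4a3 and Col4a4 rose from very low levels, and Col4a5 and Col4a6 fell. Col4a1 (ENSMUSG00000031502, chr8:11198423-11312826, minus strand) stood at 873, 924, 898, 915 and 771 CPM in control medium, 2194, 2797, 1379 and 1318 with TGF-beta, 1152, 1388, 1511 and 812 in CM and 894, 1183, 1524 and 704 in CM with neratinib. Col4a2 (ENSMUSG00000031503, chr8:11312805-11449287, plus strand) stood at 511, 563, 555, 559.6 and 463 CPM in control medium, 1476, 1719, 966 and 876 with TGF-beta, 779, 902, 1066 and 523 in CM and 473, 749.6, 1034 and 419 in CM with neratinib. The starts of these genes overlap by 22 bases on opposite strands. Both were above control in every TGF-beta library, by 1.13 ± 0.24, adjusted p 0.00157 and 1.24 ± 0.26, adjusted p 0.00167 (edgeR), and in both the PSC4 libraries were the higher ones. In CM, 3 of 4 libraries were above every control library for both genes; PSC5 replicate 2 was within control. The CM differences were 0.49 ± 0.24, adjusted p 0.183 and 0.64 ± 0.26, adjusted p 0.121 (edgeR), and with the block Col4a2 was called (0.65 ± 0.19, adjusted p 0.0271).

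Col4a3 had 3, 3, 4, 1 and 2 counts in the control libraries, 14, 12, 30 and 20 with TGF-beta, 3, 2, 3 and 4 in CM and 0, 4, 3 and 4 with neratinib. Its TGF-beta libraries held 0.433 to 1.29 CPM, against 0.0359 to 0.141 in control, a log2 fold change of 2.81 ± 0.52, adjusted p 0.000597 (edgeR) that rests on counts near the floor in control. Its neighbour Col4a4 held 0.248 to 0.874 CPM in control and 1.48 to 2.20 with TGF-beta, 1.92 ± 0.35, adjusted p 0.00051 (edgeR). For both, every TGF-beta library was above every library of the other groups. These genes are the pair that share the 71 bases printed above.

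Col4a5 (ENSMUSG00000031274, chrX:141475385-141689234, plus strand) stood at 191, 161, 146, 163 and 183 CPM in control medium, 91.1, 77.2, 141 and 60.5 with TGF-beta, 119, 76.7, 79.7 and 128 in CM and 15.5, 60.9, 86.6 and 79.5 in CM with neratinib. All libraries of the 3 other groups were below control. The difference was -0.92 ± 0.35, adjusted p 0.0472 with TGF-beta, -0.78 ± 0.34, adjusted p 0.149 in CM and -1.58 ± 0.36, adjusted p 0.00303 with neratinib (edgeR). With the block the TGF-beta value was -0.94 ± 0.39, adjusted p 0.0592, and that call was lost in 12 alternatives. The CM value passed without the libraries labelled PSC4 replicate 1 (-0.84, adjusted p 0.0274, edgeR). Col4a6 (ENSMUSG00000031273, chrX:141165403-141474076, minus strand) had 8.82, 10.6, 7.08, 7.26 and 6.60 CPM in control, 1.16, 0.722, 1.63 and 0.814 with TGF-beta, 2.58, 4.62, 2.14 and 4.43 in CM and 1.83, 3.74, 3.03 and 5.498 with neratinib. No library of another group reached the control range, and the TGF-beta libraries were the lowest. Its log2 fold changes were -2.91 ± 0.36, adjusted p 2.08e-05 with TGF-beta, -1.24 ± 0.33, adjusted p 0.022 in CM and -1.22 ± 0.33, adjusted p 0.00884 with neratinib (edgeR). The annotated starts of this pair are 1309 bases apart. The plot of type IV chains sets each pair in a column.

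**Figure D3:**
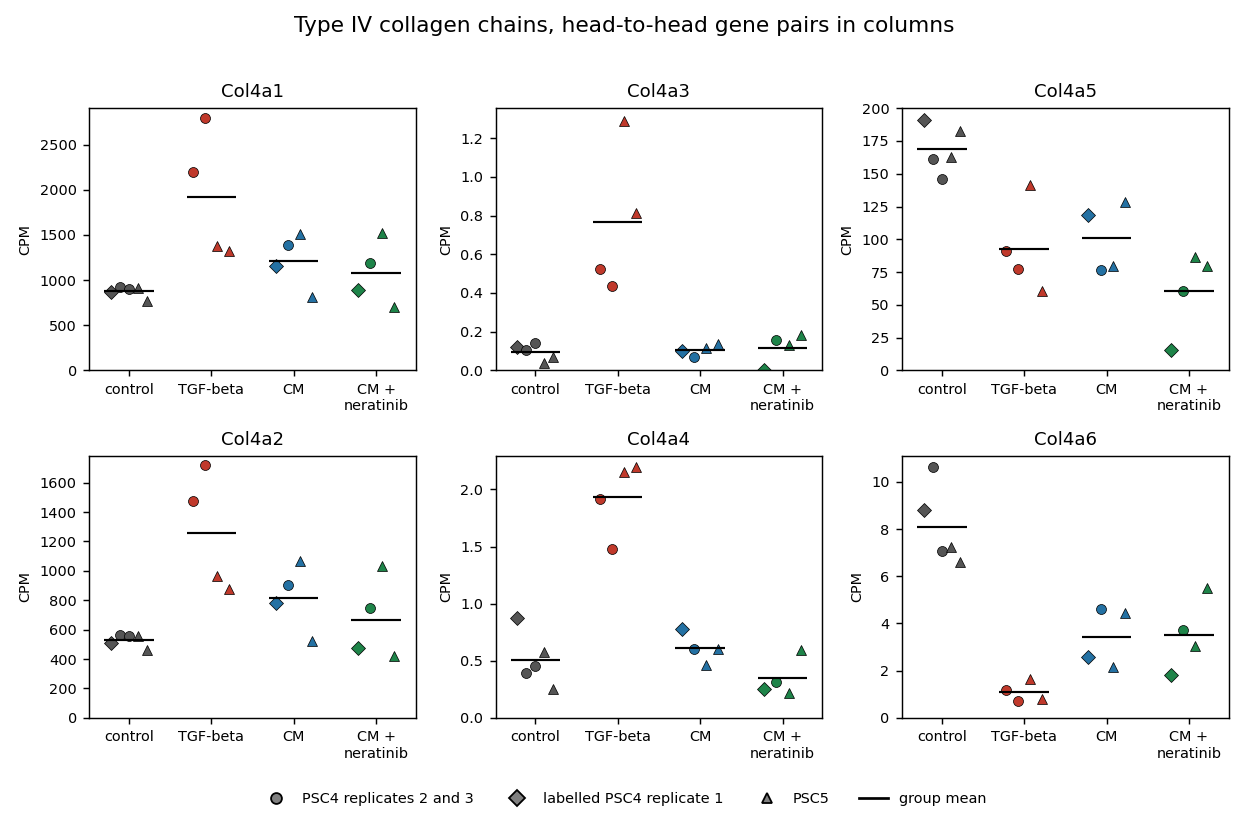
CPM (y axis, from 0, scales differ) of the 6 type IV collagen chain genes in each library by group, head-to-head gene pairs in columns, with the group mean as a bar. With TGF-beta the Col4a1 and Col4a2 pair and the Col4a3 and Col4a4 pair lie above control, and the Col4a5 and Col4a6 pair lies below.

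FACIT collagens sit on the surface of fibrils. Of the 7, 4 were tested, and with TGF-beta 1 of them rose. Col12a1 (ENSMUSG00000032332, chr9:79598991-79718831, minus strand), which binds type I fibrils, stood at 138, 251, 281, 162 and 146 CPM in control medium, 230.1, 185, 243 and 95.7 with TGF-beta, 52.3, 102, 51.3 and 58.9 in CM and 19.7, 91.3, 54.3 and 38.8 in CM with neratinib. Control and TGF-beta overlapped, with a log2 fold change of 0.00 ± 0.36 (adjusted p 0.998, edgeR). All CM and neratinib libraries were below control, with log2 fold changes of -1.52 ± 0.38, adjusted p 0.0165 and -1.88 ± 0.39, adjusted p 0.00148 (edgeR). Within the media the CM difference was -1.27 in T6 and -1.85 in T8 on the log2(CPM + 0.5) scale. Its call in CM was lost without CM PSC4 replicate 1 or CM PSC5 replicate 1. Col14a1, which also binds fibrils, stood at 0.596, 2.86, 3.14, 1.15 and 0.638 CPM in control medium, 5.41, 3.83, 4.82 and 1.18 with TGF-beta, 1.60, 1.94, 1.49 and 1.91 in CM and 1.19, 2.45, 1.60 and 0.962 in CM with neratinib. PSC4 replicates 2 and 3 were highest in control, the groups overlapped, and the TGF-beta value was 1.29 ± 0.47, adjusted p 0.0387 (edgeR). Col16a1 (ENSMUSG00000040690, chr4:130047840-130099283, plus strand), a chain that links matrix fibrils and cells, stood at 266, 339, 341, 273 and 276 CPM in control medium, 409, 389, 375 and 237 with TGF-beta, 247, 298, 247 and 235 in CM and 197, 341, 303 and 251 in CM with neratinib. None of its differences from control passed, with 0.25 ± 0.16, adjusted p 0.229 with TGF-beta, -0.20 ± 0.16, adjusted p 0.442 in CM and -0.10 ± 0.16, adjusted p 0.62 with neratinib (edgeR), and groups that overlapped. Col20a1 had 1.51 to 4.61 CPM in control, 0.407 to 2.10 with TGF-beta, 0.421 to 2.08 in CM and 2.12 to 6.68 with neratinib. All neratinib libraries were above the CM range, a log2 fold change of 2.21 ± 0.46, adjusted p 0.00456 (edgeR). With the block it was also called lower with TGF-beta (-1.17 ± 0.38, adjusted p 0.0221), lower in CM (-1.33 ± 0.39, adjusted p 0.0282) and higher with neratinib (1.06 ± 0.37, adjusted p 0.0287) against control. Col22a1, not tested, had 6, 10, 5, 9 and 10 counts in control and 0, 1, 2 and 3 with TGF-beta.

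The multiplexins Col15a1 and Col18a1 are basement membrane zone collagens whose cleaved ends, such as endostatin from Col18a1, are released as fragments. Both rose with TGF-beta, Col15a1 more than any chain but Col10a1. Col15a1 (ENSMUSG00000028339, chr4:47208161-47313167, plus strand) stood at 2.07, 5.11, 6.34, 4.31 and 2.06 CPM in control medium, 365, 488, 63.8 and 41.3 with TGF-beta, 0.747, 1.98, 0.688 and 0.704 in CM and 0.298, 0.506, 0.778 and 0.275 in CM with neratinib. The TGF-beta libraries were all above the rest, and PSC4 lay well above PSC5. The log2 fold change was 5.59 ± 0.52, adjusted p 1.57e-06 (edgeR), with 6.51 in PSC4 and 3.89 in PSC5 on the log2(CPM + 0.5) scale. The interaction of line and TGF-beta was -2.51 ± 0.65 with adjusted p 0.749 (edgeR), so the difference between the lines as labelled did not pass. CM and neratinib libraries were below all control libraries, with log2 fold changes of -1.93 ± 0.62, adjusted p 0.0497 and -3.04 ± 0.74, adjusted p 0.00438 (edgeR). The CM call was lost in 11 alternatives. Col18a1 (ENSMUSG00000001435, chr10:77052178-77166548, minus strand) stood at 74.3, 58.2, 56.9, 68.7 and 70.2 CPM in control medium, 332, 267, 250.1 and 232 with TGF-beta, 64.5, 44.6, 55.9 and 53.5 in CM and 50.7, 49.5, 72.8 and 72.8 in CM with neratinib. The TGF-beta libraries did not overlap with any other, and the difference was 2.04 ± 0.15, adjusted p 1.14e-07 (edgeR), the smallest adjusted p of the members, with 2.24 in PSC4 and 1.79 in PSC5. In CM and with neratinib the values were -0.27 ± 0.15, adjusted p 0.243 and -0.11 ± 0.15, adjusted p 0.568 (edgeR). Col18a1 overlaps 8825 bases of Slc19a1 on the other strand, and whether counting used strand is not given in the sources used here; Slc19a1 had a log2 fold change of -0.02 with TGF-beta.

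Type VI collagen forms beaded filaments around cells from the products of Col6a1, Col6a2 and Col6a3. These chains fell together in CM and with neratinib but split with TGF-beta, where Col6a3 alone rose. Col6a1 (ENSMUSG00000001119, chr10:76708792-76726168, minus strand) stood at 968, 736, 701, 972 and 878 CPM in control medium, 878, 786, 862 and 409.6 with TGF-beta, 577, 425, 431 and 482 in CM and 172, 367, 431 and 256 in CM with neratinib. Col6a2 (ENSMUSG00000020241, chr10:76595762-76623630, minus strand) stood at 436, 329.9, 309, 413 and 391 CPM in control medium, 472, 419.5, 386 and 179.9 with TGF-beta, 184, 132, 112 and 166 in CM and 59.8, 126, 113 and 80.4 in CM with neratinib. For both, TGF-beta and control overlapped (-0.21 ± 0.25, adjusted p 0.536 and -0.05 ± 0.26, adjusted p 0.896, edgeR), and all CM and neratinib libraries were below control. Col6a2 fell by 1.34 in CM (0.26 SE, adjusted p 0.00494, edgeR) and by 1.98 with neratinib (adjusted p 8.31e-05, edgeR) on the log2 scale. The CM difference was -1.33 in T6 and -1.38 in T8 on the log2(CPM + 0.5) scale. Col6a1 changed by -0.83 ± 0.26, adjusted p 0.0431 in CM and by -1.48 ± 0.26, adjusted p 0.000543 with neratinib (edgeR), and the CM call was lost in 8 single-library omissions.

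Col6a3 (ENSMUSG00000048126, chr1:90765923-90843971, minus strand) stood at 171, 464, 387, 198 and 176 CPM in control medium, 1374, 1209, 877 and 554 with TGF-beta, 59.6, 159.9, 44.9 and 62.0 in CM and 27.1, 159, 60.1 and 49.3 in CM with neratinib. All TGF-beta libraries were above all control libraries, and all CM and neratinib libraries were below them, with PSC4 replicates 2 and 3 the highest in control. The log2 fold changes were 1.93 ± 0.41, adjusted p 0.00157 with TGF-beta, -1.71 ± 0.42, adjusted p 0.0162 in CM and -1.82 ± 0.43, adjusted p 0.00353 with neratinib (edgeR). The CM call was lost without CM PSC4 replicate 1 or CM PSC5 replicate 1. Col28a1 (ENSMUSG00000068794, chr6:7997808-8192617, minus strand), a related chain known mainly from nerve, stood at 29.2, 31.6, 43.9, 24.5 and 19.4 CPM in control medium, 17.6, 27.95, 7.27 and 5.86 with TGF-beta, 39.9, 18.3, 27.3 and 22.6 in CM and 0.213, 7.98, 12.7 and 3.30 in CM with neratinib. All neratinib libraries were below control and CM, and the library labelled PSC4 replicate 1 was close to 0. Its difference with neratinib was -2.14 ± 0.66, adjusted p 0.017 against control and -2.09 ± 0.67, adjusted p 0.0392 against CM (edgeR), the latter -1.55 with adjusted p 0.0563 without the libraries labelled PSC4 replicate 1. The part of the Schwann cell genes, whose sums are given above, was not tested.

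Type VII collagen forms the anchoring fibrils that fasten basement membranes to the matrix below. Col7a1 (ENSMUSG00000025650, chr9:108953586-108984875, plus strand) stood at 10.5, 5.08, 4.02, 11.03 and 12.8 CPM in control medium, 69.6, 54.3, 170.0 and 156 with TGF-beta, 8.87, 3.32, 8.07 and 8.95 in CM and 4.26, 2.88, 6.53 and 4.95 in CM with neratinib. TGF-beta libraries were above all others, PSC5 more than PSC4. The log2 fold change was 3.53 ± 0.30, adjusted p 5.02e-07 (edgeR), with 3.25 in PSC4 and 3.72 in PSC5. With neratinib it was -0.96 ± 0.31, adjusted p 0.0211 against control (edgeR), and with the block it was also lower in CM (-0.44 ± 0.11, adjusted p 0.0139). Among the short-chain network chains, Col8a1, part of a vascular and corneal matrix collagen, stood at 208, 143, 134, 156 and 211 CPM in control medium, 332, 322, 336 and 246 with TGF-beta, 237, 167, 194 and 236 in CM and 180.3, 188, 191 and 214 in CM with neratinib. It rose with TGF-beta by 0.86 ± 0.15, adjusted p 0.000352 (edgeR), with every TGF-beta library above control. Col8a2, its partner, had 0.539 to 2.11 CPM in control, 1.02 to 5.53 with TGF-beta, 0.578 to 1.48 in CM and 0.0851 to 0.467 with neratinib. Its values were 1.65 ± 0.45, adjusted p 0.00841 with TGF-beta and -1.90 ± 0.54, adjusted p 0.0108 with neratinib against control (edgeR).

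Col10a1 (ENSMUSG00000039462, chr10:34389981-34397085, plus strand), the marker of hypertrophic cartilage, stood at 0.119, 0.0715, 0.176, 0.144 and 0.142 CPM in control medium, 23.9, 25.7, 1.204 and 0.732 with TGF-beta, 0.0340, 0.0706, 0 and 0.0671 in CM and 0.213, 0.0389, 0.0865 and 0.137 in CM with neratinib. In counts these were 3, 2, 5, 4 and 4 in control, 637, 712, 28 and 18 with TGF-beta, 1, 2, 0 and 2 in CM and 5, 1, 2 and 3 with neratinib. Only the TGF-beta libraries stood clear of the floor, the PSC4 ones far above the PSC5 ones. The fitted log2 fold change with TGF-beta was 6.02 ± 0.81, adjusted p 4.22e-05 (edgeR), a size that depends on the handling of low counts. The within-line differences were 5.35 in PSC4 and 1.17 in PSC5 on the log2(CPM + 0.5) scale, which understates changes from low levels. The interaction of line and TGF-beta was -4.89 ± 0.87, with adjusted p 0.246 in edgeR and 7.02e-05 in DESeq2. Col10a1 lies within the span of Nt5dc1 on the other strand, and Nt5dc1 had a log2 fold change of 0.14 with TGF-beta (adjusted p 0.419, edgeR).

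Transmembrane collagens keep a chain end in the cell membrane. Col23a1 (ENSMUSG00000063564, chr11:51289920-51583918, plus strand) stood at 7.59, 5.26, 6.24, 8.05 and 6.13 CPM in control medium, 0.714, 0.289, 1.03 and 1.18 with TGF-beta, 8.66, 8.93, 16.3 and 6.64 in CM and 4.13, 3.70, 11.02 and 3.67 in CM with neratinib. Every TGF-beta library was below every other library. The log2 fold change was -3.18 ± 0.39, adjusted p 1.77e-05 (edgeR), with -2.80 in PSC4 and -2.23 in PSC5, the largest fall of any chain with TGF-beta. With the block it was lower with neratinib than in CM, as given above. Col17a1, the hemidesmosomal chain of epithelia, was low, with 0.647 to 0.914 CPM in control, 1.38 to 2.25 with TGF-beta, 0.402 to 0.476 in CM and 0.216 to 0.511 with neratinib. It rose with TGF-beta by 1.21 ± 0.21, adjusted p 0.000338 and changed by -0.82 ± 0.23, adjusted p 0.0261 in CM and -1.04 ± 0.23, adjusted p 0.00244 with neratinib (edgeR). Epithelial marker sums, given above by group, were 9.70 CPM in the neratinib library labelled PSC4 replicate 1, the lowest of all 17, and highest in T6 libraries. Their part in these values was not tested. Col25a1 had 0.423 to 1.84 CPM in control, 0.388 to 2.75 in CM and 0 to 0.562 with neratinib, -3.00 ± 0.65, adjusted p 0.00588 for neratinib against CM (edgeR). Col26a1 had 0.119 to 0.575 CPM in control and was the only tested member called in none of the 6 group comparisons.

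**Figure D4:**
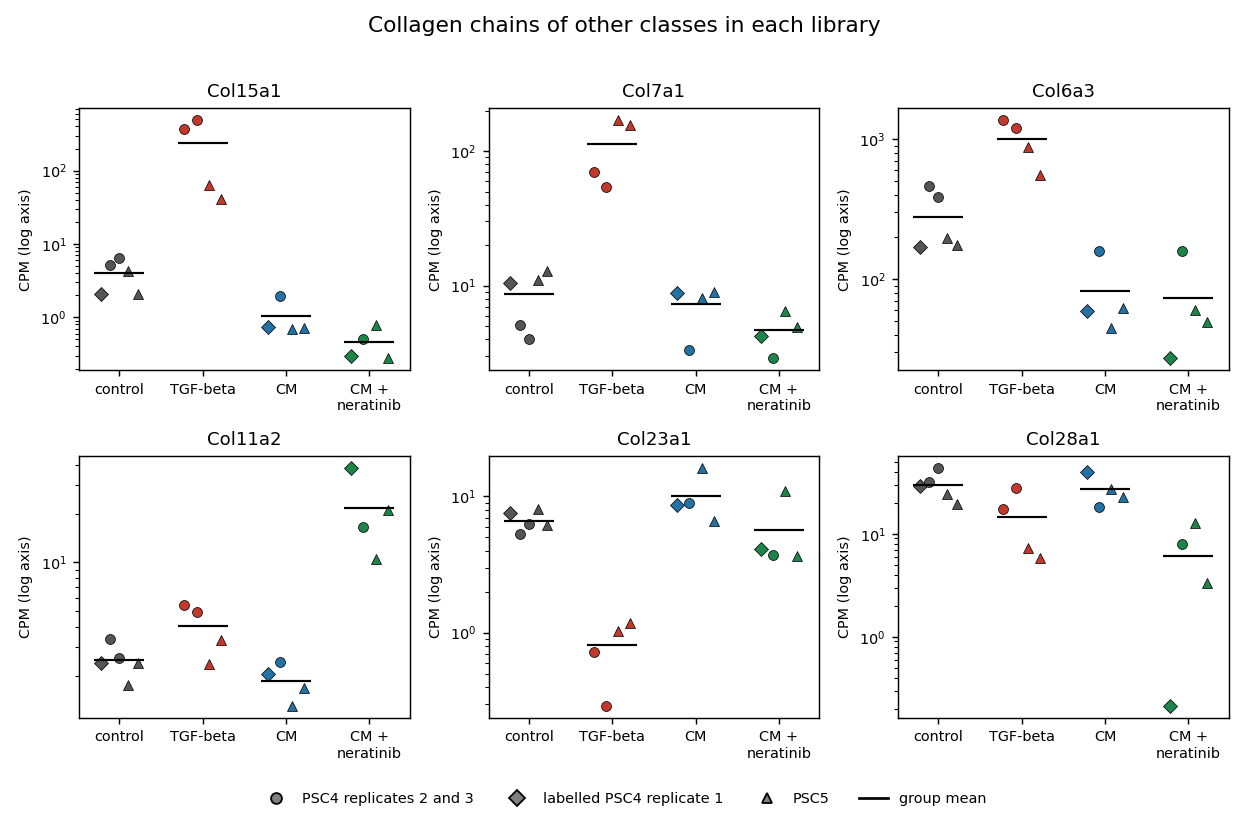
CPM (y axis, log scale) of Col15a1, Col7a1, Col6a3, Col11a2, Col23a1 and Col28a1 in each library by group, with the line as point shape and the group mean as a bar. TGF-beta libraries are highest for Col15a1, Col7a1 and Col6a3 and lowest for Col23a1, neratinib libraries are highest for Col11a2, and for Col28a1 they lie below control and CM and overlap with TGF-beta.

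The ratio of counts of chains that assemble into the same trimer was followed within each library, which needs no scaling to depth. It is described without a test. The Col1a1 to Col1a2 ratio was 2.09 ± 0.226 (SD, n = 5) in control and 2.96 ± 0.329 (n = 4) with TGF-beta, with every TGF-beta library above control. In CM (2.43 ± 0.523) and with neratinib (2.30 ± 1.04) it overlapped with control, and in both the PSC5 replicate 1 library was highest. The Col4a1 to Col4a2 ratio stayed between 1.42 and 1.89 in all libraries, with 1.65 ± 0.0344 in control, 1.51 ± 0.0838 with TGF-beta, 1.497 ± 0.0623 in CM and 1.66 ± 0.178 with neratinib.

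The Col5a1 to Col5a2 ratio was 0.608, 0.417, 0.382, 0.568 and 0.613 in the control libraries, 0.339, 0.322, 0.498 and 0.453 with TGF-beta, 0.280, 0.175, 0.223 and 0.311 in CM and 0.198, 0.115, 0.172 and 0.205 with neratinib. All CM and neratinib libraries were below control, and in every group the libraries of PSC4 replicates 2 and 3 were the lowest. The Col6a1 to Col6a2 ratio was 2.26 ± 0.0521 in control, 2.06 ± 0.225 with TGF-beta, 3.29 ± 0.408 in CM and 3.198 ± 0.434 with neratinib, with all 8 CM and neratinib libraries above the other 9. The Col6a3 to Col6a1 ratio was 0.176, 0.630, 0.552, 0.204 and 0.200 in control, 1.56, 1.54, 1.02 and 1.35 with TGF-beta, 0.103, 0.376, 0.104 and 0.129 in CM and 0.157, 0.433, 0.139 and 0.193 with neratinib. The TGF-beta libraries were above all others, and within the other groups PSC4 replicates 2 and 3 were highest.

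**Figure D5:**
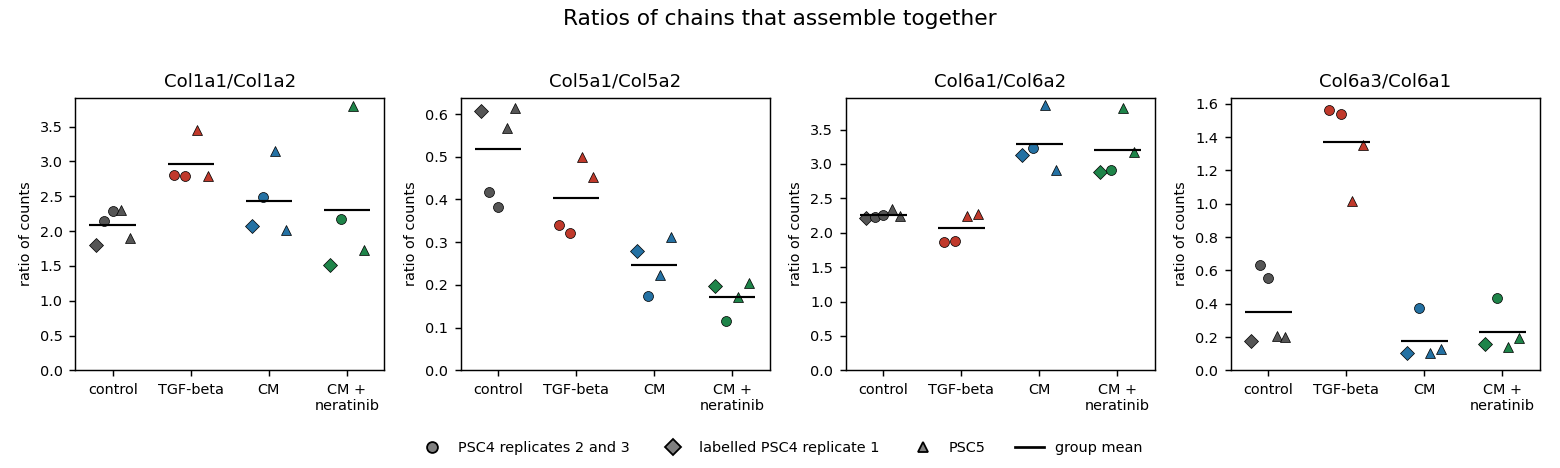
Ratio of counts (y axis, from 0) of collagen chains that assemble together, in each library by group, with the line as point shape and the group mean as a bar. Ratios with TGF-beta stand above control for Col1a1 to Col1a2 and Col6a3 to Col6a1, and CM libraries with or without neratinib stand below control for Col5a1 to Col5a2 and above it for Col6a1 to Col6a2.

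Collagen chains are modified, cleaved, crosslinked, bound and broken down by other gene products. Counts for these lists stand against the shares of all genes called, which with TGF-beta were 19.7% higher and 20.5% lower. With TGF-beta, 13 of 18 tested hydroxylation and folding genes rose and 0 fell (median 0.57), among them the prolyl hydroxylase subunits P4ha2 (1.35 ± 0.26, adjusted p 0.000737) and P4ha1 (1.07 ± 0.13, adjusted p 1.98e-05) (edgeR). Of 7 tested propeptide cleavage genes 3 rose, led by the proteinase Tll1 (2.82 ± 0.23, adjusted p 4.71e-07) and the enhancer Pcolce2 (2.39 ± 0.28, adjusted p 1.06e-05). Of 5 crosslinking genes 2 rose, the lysyl oxidases Loxl2 (1.22 ± 0.34, adjusted p 0.00983) and Loxl3 (0.60 ± 0.17, adjusted p 0.0131). Of 4 fibril-binding proteoglycans 2 rose and 1 fell, with Fmod at 1.79 ± 0.56, adjusted p 0.018 and Dcn at -2.01 ± 0.43, adjusted p 0.0018. Of 7 collagen receptors 2 rose and 3 fell, with Itga2 at 1.21 ± 0.32, adjusted p 0.00755 and Itga1 at -2.13 ± 0.45, adjusted p 0.00161, both subunits of collagen-binding integrins. Of 6 tested breakdown genes 1 rose, the gelatinase Mmp2 (1.37 ± 0.22, adjusted p 0.000161). All are edgeR values.

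In CM, where 7.05% of all genes were higher and 7.14% lower, 2 of 18 hydroxylation and folding genes rose and 1 fell (median 0.03), and 0 of 5 crosslinking genes were called in edgeR, with 1 of them, Loxl4, at an unadjusted p under 0.05. The collagenase Mmp13 rose by 4.89 ± 0.45, adjusted p 1.65e-05 and Mmp2 by 0.92 ± 0.22, adjusted p 0.0129, the 2 of 6 breakdown genes called. Of 4 proteoglycans 1 rose and 1 fell: Dcn (3.03 ± 0.41, adjusted p 0.000407) and Fmod (-3.36 ± 0.66, adjusted p 0.00492) went against their direction with TGF-beta. Of 7 propeptide cleavage genes 1 rose (Adamts3, 1.71 ± 0.46, adjusted p 0.0249) and 1 fell (Pcolce2, -1.10 ± 0.29, adjusted p 0.0217), and of 7 receptors 1 fell (Ddr2, -0.32 ± 0.09, adjusted p 0.0312). With neratinib against control, where 22.2% of all genes were higher and 20.9% lower, 4 of 5 crosslinking genes fell (median -0.71), among them Lox (-1.05 ± 0.36, adjusted p 0.0284) and Loxl4 (-0.72 ± 0.15, adjusted p 0.00174). Of 18 hydroxylation and folding genes 5 rose and 2 fell, with P4ha2 at 1.04 ± 0.25, adjusted p 0.00458 and the prolyl 3-hydroxylase P3h2 at -2.10 ± 0.41, adjusted p 0.00104. Of 7 propeptide cleavage genes 2 fell, Tll1 (-1.42 ± 0.26, adjusted p 0.000599) and Pcolce2 (-0.89 ± 0.29, adjusted p 0.0217), and of 7 receptors 2 fell, Itga11 (-3.22 ± 0.60, adjusted p 0.000807) and Itga1 (-1.21 ± 0.44, adjusted p 0.0364). The proteoglycans Dcn (3.10 ± 0.41, adjusted p 6.45e-05) and Fmod (-5.22 ± 0.80, adjusted p 0.000183) were called as in CM, and of 6 breakdown genes 2 rose and 1 fell, with Mmp13 at 5.82 ± 0.45, adjusted p 9.6e-07 and Fap at -1.70 ± 0.41, adjusted p 0.00438. Against CM, where 20.5% of all genes were called and 9.63% were lower, 2 of the 47 tested genes of these lists were called, and both fell: Itga11, a receptor subunit for fibrillar collagen (-1.98 ± 0.61, adjusted p 0.0334), and Fap, a fibroblast protease (-1.43 ± 0.42, adjusted p 0.0281). All are log2 fold changes from edgeR.

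The lines were also compared across all groups. As labelled, 2 members differed, where 6.97% of all genes were called (2.18% higher, 4.78% lower): Col7a1 was higher in PSC5 (0.89 ± 0.21, adjusted p 0.0336) and Col11a2 was lower (-0.67 ± 0.19, adjusted p 0.0462) (edgeR). The first call was lost in 12 and the second in 13 of the omissions of a single library. Without the libraries labelled PSC4 replicate 1, 14 members differed, where 42.6% of all genes were called (21% higher in PSC5, 21.5% lower). The 4 higher in PSC5 were Col7a1 (1.33), Col5a3 (1.00), Col5a1 (0.52) and Col25a1 (1.93), and the 10 lower ones were led by Col10a1 (-3.30), Col15a1 (-2.02), Col8a2 (-1.45) and Col6a3 (-1.24) on the log2 scale. Counted with PSC5, those libraries gave 13 members, where 43.4% of all genes were called (21.7% higher, 21.8% lower). No member and no gene was called in the 3 tests of whether an effect differed between lines (edgeR). These tests took the lines as labelled, with the libraries labelled PSC4 replicate 1 in PSC4. The lack of calls therefore does not show that the lines responded alike. At an unadjusted p under 0.05 there were 2 members for TGF-beta (Col10a1 and Col15a1), 0 for CM and 2 for neratinib against CM (Col2a1 and Col18a1), among 601, 43 and 237 of all genes. DESeq2 called 1 member for TGF-beta, Col10a1, with the smaller rise in PSC5, and 0 for the other effects, where for TGF-beta 0.194% of all genes were called (0.0719% higher, 0.122% lower).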

How the data were processed

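RNA had been extracted with TRIzol and an RNeasy Plus kit and made into Illumina mRNA libraries, per the labels' protocols. The authors deposited 1 file per library of expected counts per gene. The submitters' processing notes name Salmon 1.4.0, DESeq 2 and the builds GRCm38 and mm10 without their roles. Whether counting used strand is not given in the sources used here. Expected counts were rounded to whole numbers and fitted with edgeR 4.0.16 (R 4.3.3, limma 3.58.1): TMM factors, filterByExpr by group (minimum count 10, minimum total 15), a model of group and cell line over all 17 libraries, the quasi-likelihood test and Benjamini-Hochberg adjustment over 13923 genes. A gene was called at an adjusted p under 0.05. The ± beside a log2 fold change is its standard error, and the ± beside a level or ratio is the SD over libraries. CPM used TMM-scaled library sizes, and CPM per kb used the longest principal transcript of each gene. The biological coefficient of variation was 19.8%. Differences within a line or a medium code are of mean log2(CPM + 0.5). Those of PSC4 against control take in the control library labelled PSC4 replicate 1.

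The members and gene lists were chosen with earlier results of these data known. Per-library values were given for members with a mean of at least 10 CPM in their highest group and a call in at least 1 of 6 group comparisons, and for a set of major chains whatever their values. Other members were given by ranges, by a few counts or by the libraries where few counts carry the result. At most 2 called genes per pathway list were named in a comparison. Replicate numbers of a line carry the same passage label across groups. In all 22 pairs of libraries with the same line and number the deviations from the group means correlated above 0.1 (lowest 0.152, median 0.39). Of 32 pairs of the same line with another number 14 did (median -0.12, highest 0.71), and of 54 pairs of different lines 14 did (median -0.23, highest 0.45). The numbers were taken to pair the samples. The main fit does not use this pairing, and line and number were fitted as a block as an alternative only. Alternatives were other scalings and filters, DESeq2 1.42.0, that block, no line term, other treatments of the libraries labelled PSC4 replicate 1, the compared groups alone, and leaving out each library. On simulated data for TGF-beta against control (13736 genes), edgeR recovered 70.7% of 99 genes changed by a log2 size of 1 and 86% of 100 changed by 2, and 1.89% of its calls were false. The simulated counts were drawn independently from 1 mean per gene, with no difference between lines and no pairing of replicates. No other gene was changed in them. These rates therefore check the code and do not measure the errors among the calls in the real libraries. Gene positions are from GENCODE M21, and promoter sequences are from RefSeq.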

Additional observations from a re-analysis of the deposited data

Results flagged for a closer look

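In 10 of the 124 groups of 4 or 5 libraries examined (member CPM values and chain ratios), 1 library lay far from the others by Dixon's criterion, which chance does in about 1 of 20 groups. Of these, 6 were the same library, CM PSC4 replicate 2, set against the other 3 CM libraries. It was highest for Col27a1 (10.3 CPM, the next 2.98), Col12a1 (102 CPM, the next 58.9), Col15a1 (1.98 CPM, the next 0.747), Col6a3 (159.9 CPM, the next 62.0) and the Col6a3 to Col6a1 ratio (0.376, the next 0.129), and lowest for Col7a1 (3.32 CPM, the next 8.07). It is the only CM library of PSC4 other than the one labelled replicate 1. In the TGF-beta group, PSC5 replicate 1 was highest for Col5a1 (1369 CPM, the next 829.1) and for the Col1a1 to Col1a2 ratio (3.45, the next 2.80), and PSC5 replicate 2 was lowest for Col8a1 (245.6 CPM, the next 322). In the neratinib group, PSC5 replicate 1 was highest for Col23a1 (11.02 CPM, the next 4.13).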

How the results depend on the processing

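Of 117 called values of members, 88 kept their call in every alternative run that tested the gene, 29 lost it in at least 1 and 0 changed sign. A run whose filter dropped a low gene gave no value for it and was not counted as a loss. Of the calls kept throughout, 20 were for TGF-beta and 16 for neratinib against control, 1 each for CM against control and neratinib against CM, and 0 between the lines. Leaving out each library in turn gave 1 to 9 calls for CM against control, where 5.68% to 12.9% of all genes were called. For neratinib against CM it gave 3 to 9, where 12.4% to 26.1% of all genes were called. DESeq2 gave 1 call for the interaction of line and TGF-beta, where 0.194% of all genes were called. It gave 6 between the lines, a count not set against all genes here and no result about the members. Without the libraries labelled PSC4 replicate 1 there were 14 calls between the lines, where 42.6% of all genes were called. When those libraries were counted with PSC5 there were 13, where 43.4% were. For neratinib against CM there was 1 with only these groups in the model, where 4.54% of all genes were called. With the replicate block there were 10, where 32.8% were. Beside the calls given in the report, the block ended those of Col2a1 for CM (-1.27, adjusted p 0.0576) and of Col14a1 for neratinib (-0.92, adjusted p 0.0757) and added Col4a1 for CM (-0.53, adjusted p 0.048), all against TGF-beta, and it changed no other call (edgeR).

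The values that changed sign were all uncalled. For TGF-beta against control, Col12a1 was -0.048 with upper-quartile factors, -0.21 with the replicate block, -0.053 without the line term, -0.097 without the libraries labelled PSC4 replicate 1, -0.060 with them counted as PSC5, and -0.27 to 0.18 with 1 library left out, where Col6a2 ranged from -0.18 to 0.18. For neratinib against control, Col14a1 was -0.047 with upper-quartile factors and -0.11 without the line term, and Col10a1 was 0.29 with the block and 0.35 with those libraries as PSC5. Without those libraries Col16a1 was 0.015 and Col18a1 was 0.0042. For CM against control, Col28a1 was 0.17 with the block and 0.072 with those libraries as PSC5. Without them Col5a2 was 0.043 and Col6a3 was 0.016 for neratinib against CM, and Col4a5 was -0.020 for CM against TGF-beta.

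With 1 library left out, the ranges for neratinib against control were -0.45 to 0.24 for Col5a3, -0.20 to 0.27 for Col14a1, -0.55 to 0.71 for Col10a1, -0.21 to 0.064 for Col16a1 and -0.0010 to 0.54 for Col4a2. For neratinib against CM they were -0.79 to 0.32 for Col27a1, -0.55 to 0.22 for Col6a3, -0.48 to 0.041 for Col4a1, -0.31 to 0.043 for Col5a2 and -0.00024 to 0.26 for Col16a1. Col28a1 ranged from -0.22 to 0.17 for CM against control and Col4a5 from -0.061 to 0.34 for CM against TGF-beta. The cause was not tested. Depth limits the members near 3 counts per library (0.102 to 0.135 CPM).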
